A study of Mus musculus with 18 samples.

Results

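Fkbp5, Sgk1 and Odc1 are 3 genes known from other organs to respond to steroid hormones, and were followed here through 3 mouse glands with and without testosterone. They were chosen by name as androgen-responsive genes of other organs, with earlier results of these data known, and each was measured by 1 probe. They are 3 of 8841 named genes on the array and of 6485 named genes that were tested. All 3 passed the filter on low values.

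The RNA came from male BALB/c mice without testes (orchiectomised), which carried a hormone pellet with placebo or with testosterone for 21 days. Tears get their water from the lacrimal gland and their lipid from the meibomian gland of the eyelid, while the submandibular gland makes saliva. There were 6 groups, each of these glands with either pellet, and 3 pools (A, B and C) in a group. A pool held 10 glands of 5 animals and separate animals went into separate pools, although the labels elsewhere speak of 4 animals for each sex and experiment. Every group lacks testes, so the placebo groups stand for castrated males and not for intact males. No age, dose or intact group was used here.

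Fkbp5 encodes FKBP51, an immunophilin that sits with HSP90 in the complexes of steroid receptors. Androgens, glucocorticoids and progestins induce it through response elements, and its protein lowers the hormone binding of the glucocorticoid receptor, which makes a short feedback loop. Sgk1 encodes a serine/threonine kinase that is switched on by phosphoinositide 3-kinase signalling through PDK1. It is best known for keeping the epithelial sodium channel at the cell surface by phosphorylating the ubiquitin ligase NEDD4L, and glucocorticoids and aldosterone raise its transcript. Odc1 encodes ornithine decarboxylase, which makes putrescine from ornithine at the start of polyamine synthesis, and the mouse kidney is the classic organ in which androgen induces it. All values below are of transcripts, and protein and enzyme activity were not analysed here.

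Steroid receptors of this class bind DNA as dimers, to a pair of hexamers that face each other. The sequence before a listed transcript start is therefore shown for both genes whose change was largest. All 3 genes matched RefSeq's promoter table (GRCm38.p6), with 1 window of 250 bases before the start for Fkbp5, 6 windows for Sgk1 and 1 for Odc1. Capitals mark the hexamer AGAACA, which reads TGTTCT on the other strand, the same hexamer as an inverted repeat with 3 bases between its arms, and the E-box CACGTG. Fkbp5 lies on the minus strand of chromosome 17, and its window is chr17:28486150-28486399. Sgk1 lies on the plus strand of chromosome 10, and the window shown, before the fifth of its listed starts, is chr10:21993640-21993889. Of its 6 windows it is the one that held the inverted repeat, and the others are not shown.
Fkbp5, before the start: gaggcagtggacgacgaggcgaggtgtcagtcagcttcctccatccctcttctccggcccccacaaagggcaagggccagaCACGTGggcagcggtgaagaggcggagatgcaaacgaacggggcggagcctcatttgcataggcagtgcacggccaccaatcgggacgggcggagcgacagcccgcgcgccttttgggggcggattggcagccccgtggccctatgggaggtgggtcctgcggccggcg
Sgk1, before the fifth start: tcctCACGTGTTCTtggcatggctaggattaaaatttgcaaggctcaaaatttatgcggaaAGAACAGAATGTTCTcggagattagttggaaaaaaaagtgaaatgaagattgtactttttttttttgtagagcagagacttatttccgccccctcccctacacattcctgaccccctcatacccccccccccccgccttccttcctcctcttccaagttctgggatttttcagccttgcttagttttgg

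The Sgk1 window held the full inverted repeat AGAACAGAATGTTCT at chr10:21993701-21993715, which ends 174 bases before that start and 950 bases before the last listed start. Of 32851 windows of the same length in the table, 3 held this repeat (0.00913%). The same Sgk1 window held the hexamer 3 times, counting both arms of the repeat, and a CACGTG that overlaps the hexamer outside the repeat. Single hexamers also stood in the windows of the first and the fourth Sgk1 start. The remaining Sgk1 windows, that of the last listed start among them, held none of these motifs. The hexamer was found in 16.1% of all windows on either strand. The Fkbp5 window held none, and held a CACGTG 163 bases before the start, a motif found in 6.02% of all windows. The Odc1 window (chr12:17544623-17544872, plus strand) held neither, nor the cyclic AMP response element TGACGTCA, which stood in 1.55% of windows and in none of those of the 3 genes. These matches describe letters only, binding was not measured, and which Sgk1 start these glands use was not measured.

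The deposited values were intensities on a linear scale with a median between 0.929 and 0.952 on each array, and are called intensities below. Each group's value is the mean ± SD over n = 3 pools. A change is the difference of log2(intensity + 0.174), testosterone minus placebo, ± SE from a limma fit of all 18 arrays. Adding 0.174 makes changes of dim probes look smaller than they were. A change was called at a Benjamini-Hochberg adjusted p-value under 0.05 over 7463 tested probes. Intensities of different probes are not compared.

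Of the tissue markers, Elovl3, Egf and Ltf were each highest in the gland they mark, but not all listed markers were. Elovl3, an elongase that makes the long lipids of sebum, was between 99.01 and 170.7 in meibomian pools and at most 0.699 elsewhere. Egf was between 33.7 and 289.7 in submandibular pools and at most 4.92 elsewhere. Ltf was between 37.6 and 83.9 in lacrimal pools and at most 9.60 elsewhere. Car6, listed as a lacrimal marker, averaged 547 and 277 in the lacrimal placebo and testosterone groups and 509 and 494 in the submandibular ones. Mc5r, listed as a sebocyte marker, averaged 0.488 and 0.555 in the meibomian groups and 3.40 and 3.49 in the lacrimal ones. In addition, 3 pools held markers of another gland. Lacrimal placebo pool A and lacrimal testosterone pool C had Amy1, a salivary amylase, at 119.7 and 85.6, against 1.97 to 10.7 in the other lacrimal pools, and Klk1b5, a kallikrein of the submandibular ducts, at 14.7 and 10.7 against 0.316 to 0.648. Meibomian placebo pool B had Scgb1b2 at 98.3 against 3.40 to 9.35 in the other meibomian pools. The changes of Fkbp5, Sgk1 and Odc1 are therefore also given without these 3 pools, and the listed genes whose called change within a gland was lost without them are named. Meibomian arrays had a narrower range, with a maximum of 134.6 to 219.1 against 597.5 and above on the other arrays, so that differences between this gland and the others include a difference between arrays.

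Fkbp5 rose strongly in the lacrimal gland. With pools given in the order A, B, C here and below, its intensity was 1.30, 1.62 and 1.35 under placebo and 20.7, 16.9 and 24.6 under testosterone. Every testosterone pool lay far above every placebo pool, and 18.2% of probes in this gland had the testosterone pools wholly above. The means were 1.42 ± 0.173 and 20.8 ± 3.87, a ratio of 14.6. The change was 3.70 ± 0.31 (95% interval 3.05 to 4.36, limma adjusted p = 1.06e-07). Over all tested probes 13.3% were called higher and 14.8% lower in this gland, and 32 probes rose by more than Fkbp5. The change was 3.52 (adjusted p = 4.60e-05) without the 3 pools that held markers of another gland. In pooled gland RNA, more cells that express a gene and more RNA per cell cannot be told apart, here and below.

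Fkbp5 also rose in the submandibular gland. The placebo pools read 1.19, 1.33 and 0.327, and the testosterone pools read 6.40, 4.65 and 7.31. The groups did not overlap, and 16.5% of probes in this gland had the testosterone pools wholly above. Placebo pool C was far below the other placebo pools. The means were 0.951 ± 0.545 and 6.12 ± 1.35, a ratio of 6.43. The change was 2.61 ± 0.31 (95% interval 1.96 to 3.27, limma adjusted p = 2.07e-05), against 8.54% of probes called higher and 5.25% called lower in this gland. Without placebo pool C it was 2.11 (adjusted p = 4.69e-06), and without the 3 pools with markers of another gland it was 2.61 (adjusted p = 0.000256). That pool also had the most signal of fat-cell genes: Adipoq, an adipocyte hormone, was 3.34, 18.4 and 33.9 in the placebo pools, and Fabp4, an adipocyte lipid carrier, was 37.0, 53.1 and 90.2. Its part in the low Fkbp5 value was not tested. Fkbp5 was among 142 probes (1.90%) called higher in both the lacrimal and the submandibular gland.

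In the meibomian gland Fkbp5 read 0.651, 0.465 and 0.426 with placebo and 1.03, 1.18 and 1.30 with testosterone. The groups did not overlap, which was so for 24.1% of probes with the testosterone group above and 11.8% with it below. The means were 0.514 ± 0.120 and 1.17 ± 0.135. The difference of 0.98 ± 0.31 (95% interval 0.32 to 1.63) did not pass the adjustment (limma adjusted p = 0.179), although only 16 probes had a larger upward difference in this gland. In this gland 0.469% of probes were called higher and 0.121% lower, so 79.5% of calls were higher. After quantile normalization over all arrays or within glands 64.3% and 68.6% of calls were higher. With the meibomian arrays fitted alone the Fkbp5 difference passed (adjusted p = 0.0236), as it did without submandibular placebo pool C (adjusted p = 0.0249) and with array weights (adjusted p = 0.000779). It was 0.93 (adjusted p = 0.489) without the 3 pools with markers of another gland.

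Sgk1 did not follow Fkbp5, and the glands moved it in opposite directions. In the submandibular gland it read 6.49, 6.19 and 6.91 under placebo and 26.5, 15.9 and 28.0 under testosterone. All testosterone pools were above all placebo pools, with pool B the lowest of them. The means were 6.53 ± 0.361 and 23.5 ± 6.57, a ratio of 3.59. The rise was 1.78 ± 0.19 (95% interval 1.37 to 2.18, limma adjusted p = 7.45e-06). In this gland 16.5% of probes had the testosterone pools wholly above the placebo pools. Leaving out the 3 pools with markers of another gland, none of them submandibular, left the value at 1.78 (adjusted p = 8.36e-05).

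In the lacrimal gland Sgk1 fell. Its placebo pools read 1.17, 1.46 and 1.44, and its testosterone pools read 0.753, 0.490 and 0.765. These testosterone values were dim, at percentiles 44.7, 34.4 and 45.9 of their arrays. Pool B was thus below the 40th percentile that the filter on low values used. The testosterone pools were all below the placebo pools, as they were for 21.5% of probes in this gland, while 18.2% had them all above. The means were 1.36 ± 0.160 and 0.669 ± 0.156, so that placebo was 2.03 times testosterone. The change was -0.87 ± 0.19 (95% interval -1.28 to -0.47, limma adjusted p = 0.00249). Leaving out the 3 pools gave -1.05 (adjusted p = 0.00955). Sgk1 was among 108 probes (1.45%) called lower in the lacrimal and higher in the submandibular gland. Sgk1 thus moved in the direction of its label, an androgen-induced gene, in the submandibular gland and against it in the lacrimal gland. Whether androgen acts on the gene itself was not tested.

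Meibomian Sgk1 read 10.6, 9.20 and 9.06 with placebo and 7.02, 6.0 and 7.99 with testosterone. The testosterone pools lay below the placebo pools without overlap, as they did for 11.8% of probes in this gland, while 24.1% had them all above. The means were 9.61 ± 0.824 and 7.01 ± 0.994, and the difference of -0.45 ± 0.19 (95% interval -0.86 to -0.05) was not called (limma adjusted p = 0.305). It passed only with array weights, where it was -0.61 (adjusted p = 0.000644), a setting under which 2661 probes were called in this gland against 44 in the main fit. Leaving out the 3 pools with markers of another gland gave -0.48 (adjusted p = 0.540).

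Odc1 rose in the lacrimal gland. Mouse Odc1 has pseudogenes, the sequence of its single probe was not used here, and whether the probe also reads their transcripts was not tested. The placebo pools read 4.37, 4.72 and 4.94, and the testosterone pools read 8.49, 7.58 and 7.78. The groups did not overlap and each was tight. In this gland 18.2% of probes had the testosterone pools wholly above the placebo pools. The means were 4.68 ± 0.287 and 7.95 ± 0.477, a ratio of 1.70. The change was 0.74 ± 0.17 (95% interval 0.39 to 1.10, limma adjusted p = 0.00331), and it was 608th from the top of 7463 probes ordered by change. Without the 3 pools with markers of another gland it was 0.71 (adjusted p = 0.0461).

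No change of Odc1 was called in the other glands. Meibomian pools read 2.21, 2.21 and 2.04 with placebo and 2.08, 1.86 and 2.32 with testosterone, and the groups overlapped. The difference was -0.05 ± 0.17 (95% interval -0.41 to 0.31, limma adjusted p = 0.935), and -0.029 without the 3 pools (adjusted p = 0.978). Submandibular pools read 2.45, 3.11 and 3.19 with placebo and 2.23, 3.61 and 4.03 with testosterone, which also overlapped. There the difference was 0.13 ± 0.17 (95% interval -0.23 to 0.49, limma adjusted p = 0.667), and 0.13 without the 3 pools (adjusted p = 0.705). The intervals leave room for a change of up to 0.49 in the submandibular gland, and the direction turned to -0.028 without submandibular testosterone pool C and to 0.027 in the meibomian gland without meibomian testosterone pool B.

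**Figure D1:**
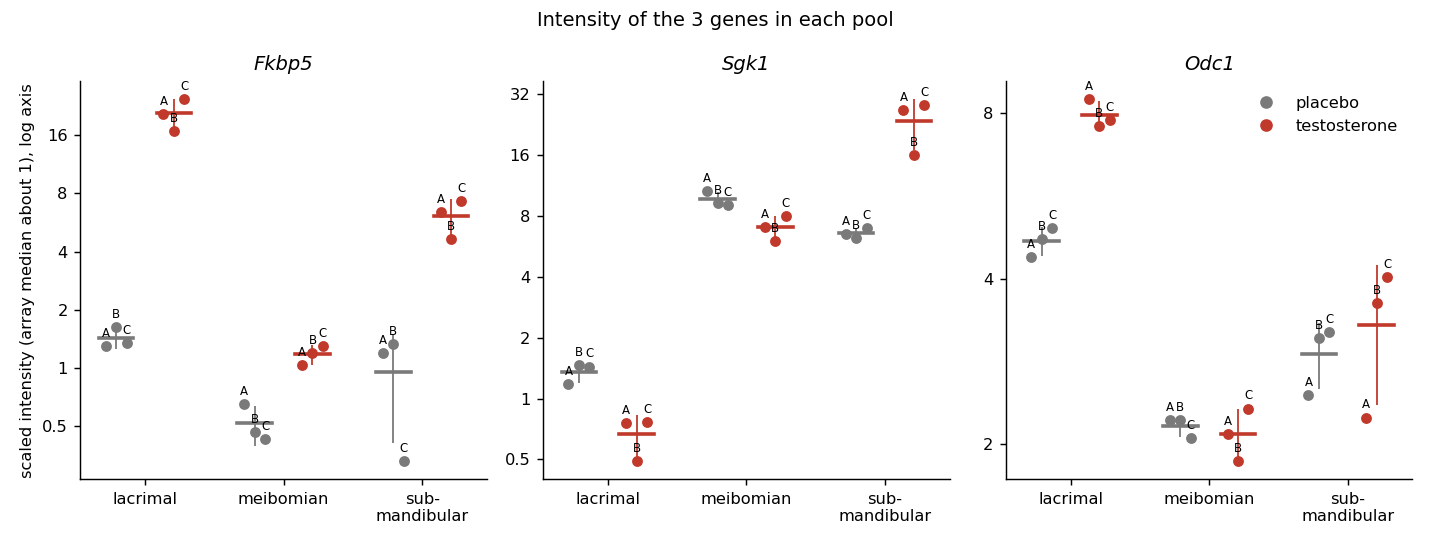
Intensity of Fkbp5, Sgk1 and Odc1 in each pool (dots, lettered A to C) on log axes that differ between the panels, with placebo in grey and testosterone in red. Horizontal lines are group means and vertical lines are SDs over 3 pools. Fkbp5 is high in lacrimal and submandibular testosterone pools, Sgk1 is highest in submandibular testosterone pools and lowest in lacrimal ones, and Odc1 is highest in lacrimal testosterone pools.

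The differences between the glands' changes were tested directly. The Fkbp5 change was larger in the lacrimal than in the meibomian gland by 2.72 ± 0.44 (limma adjusted p = 0.000293), a contrast called for 17.6% of all probes. The lacrimal and submandibular changes of Fkbp5 differed by 1.09 ± 0.44 (95% interval 0.16 to 2.02), which was not called (adjusted p = 0.0850), while 24.0% of probes were. Without submandibular placebo pool C that difference was 1.59 (adjusted p = 0.000562). The submandibular change of Fkbp5 was larger than the meibomian one by 1.64 ± 0.44 (adjusted p = 0.0306, with 7.40% of probes called). This last call was lost without any one of 6 pools (meibomian placebo A or B, meibomian testosterone A or B, submandibular testosterone A or C), with adjusted p between 0.0582 and 0.0857. It was lost too without the 3 pools with markers of another gland (1.68, adjusted p = 0.0830). In that fit the other Fkbp5 differences were 2.58 for lacrimal minus meibomian (adjusted p = 0.00919) and 0.90 for lacrimal minus submandibular (adjusted p = 0.285).

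For Sgk1 the gland differences were called by a wide margin. Its change was lower in the lacrimal than in the submandibular gland, with a difference of -2.65 ± 0.27 (limma adjusted p = 2.16e-06). The submandibular change was above the meibomian one by 2.23 ± 0.27 (adjusted p = 6.21e-05). Both were called in all 18 fits that left out a pool, and without the 3 pools with markers of another gland they were -2.83 (adjusted p = 4.96e-05) and 2.26 (adjusted p = 0.000820). The lacrimal and meibomian changes of Sgk1, both below 0, differed by -0.42 ± 0.27 (95% interval -0.997 to 0.15, adjusted p = 0.336), and by -0.57 without the 3 pools (adjusted p = 0.330).

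The lacrimal rise of Odc1 exceeded the meibomian difference by 0.79 ± 0.24 (limma adjusted p = 0.0302). The call was lost in 8 of 18 fits that left out a pool (lacrimal placebo A or B, lacrimal testosterone A or C, and A or B of either meibomian group), with adjusted p between 0.0518 and 0.0794. When the 3 pools with markers of another gland were left out it was 0.74 (adjusted p = 0.155). Against the submandibular gland the excess was 0.61 ± 0.24 (95% interval 0.11 to 1.12, adjusted p = 0.0754). It was called without submandibular placebo pool A (0.73, adjusted p = 0.0386) and without submandibular testosterone pool C (0.77, adjusted p = 0.0243). The submandibular and meibomian changes of Odc1 differed by 0.18 ± 0.24 (adjusted p = 0.711). Without the 3 pools these last differences were 0.58 (adjusted p = 0.208) and 0.16 (adjusted p = 0.809).

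**Figure D2:**
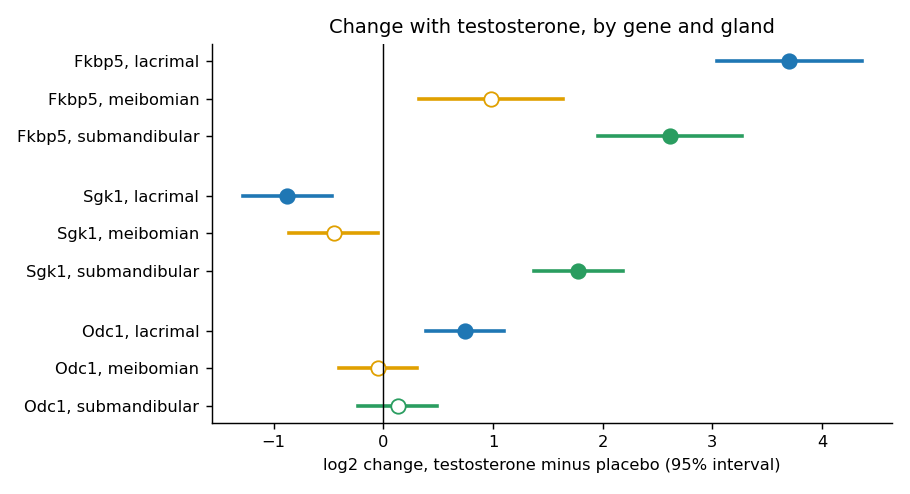
Change of each gene in each gland as log2 testosterone minus placebo on the horizontal axis, with 95% intervals over 18 arrays. Filled circles are called and open circles are not. Sgk1 stands on opposite sides of 0 in the lacrimal (-0.87) and the submandibular gland (1.78).

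**Figure D3:**
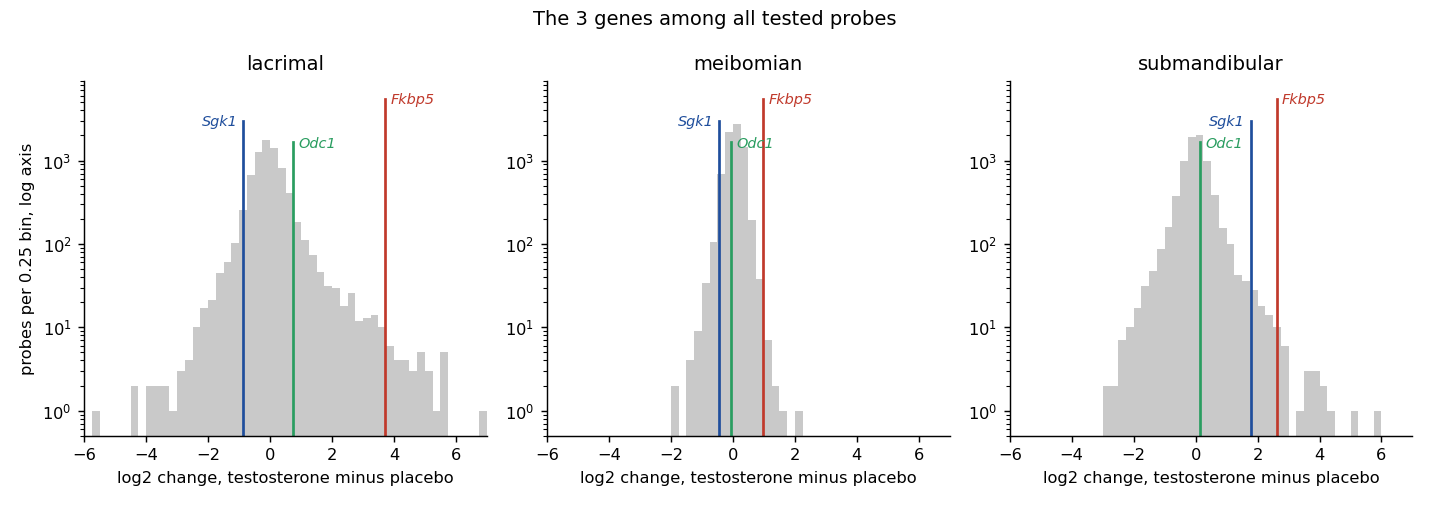
Number of tested probes (log axis) per bin of log2 change in each gland, with the 3 genes as coloured lines whose height has no meaning. Fkbp5 lies in the upper tail in each gland, and Odc1 lies inside the bulk in the meibomian and submandibular glands. The meibomian distribution is the narrowest.

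With placebo the glands already differed in all 3 genes, most of all in Sgk1. Lacrimal Sgk1 was 7.07 times lower than meibomian Sgk1 (difference -2.68, limma adjusted p = 2.69e-09) and 4.81 times lower than submandibular Sgk1 (-2.13, adjusted p = 1.38e-07). Submandibular Sgk1 was below meibomian Sgk1 (-0.54, adjusted p = 0.0200), a call lost without meibomian placebo A (adjusted p = 0.0732) or submandibular placebo B (adjusted p = 0.0564) and after quantile normalization over all arrays (adjusted p = 0.0652). Many probes differed between the placebo glands: 67.9% between lacrimal and meibomian, 44.0% between lacrimal and submandibular, and 66.6% between submandibular and meibomian. So a call in these contrasts says little about the 3 genes in particular.

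Placebo Odc1 was highest in the lacrimal gland. It was above the meibomian gland by 1.06 (limma adjusted p = 3.51e-05) and above the submandibular gland by 0.66 (adjusted p = 0.00487). The submandibular level exceeded the meibomian one by 0.40 (adjusted p = 0.0459), and 12 of 18 fits that left out a pool lost this call, with adjusted p from 0.0505 to 0.137, as did the fit without the 3 pools with markers of another gland (adjusted p = 0.0980). Placebo Fkbp5 was higher in the lacrimal than in the meibomian gland by 1.22 (adjusted p = 0.00227). It was not called between lacrimal and submandibular (0.65, adjusted p = 0.0985) or between submandibular and meibomian (0.57, adjusted p = 0.117). Without submandibular placebo pool C the second of these was 1.07 (adjusted p = 0.000282), and the first was called without submandibular placebo A (0.87, adjusted p = 0.0455) or B (0.94, adjusted p = 0.0283).

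Leaving out the 3 pools kept the other placebo calls. Sgk1 was then at -2.62 for lacrimal minus meibomian (adjusted p = 1.14e-06), -2.04 for lacrimal minus submandibular (adjusted p = 1.17e-05) and -0.57 for submandibular minus meibomian (adjusted p = 0.0421). Lacrimal Odc1 was above the meibomian level by 1.12 (adjusted p = 0.000881) and above the submandibular level by 0.70 (adjusted p = 0.0170). Fkbp5 was at 1.23 for lacrimal minus meibomian (adjusted p = 0.0201), 0.71 for lacrimal minus submandibular (adjusted p = 0.154) and 0.52 for submandibular minus meibomian (adjusted p = 0.247).

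Ordered from high to low, Fkbp5 stood at 20.8 in lacrimal testosterone, 6.12 in submandibular testosterone, 1.42 in lacrimal placebo, 1.17 in meibomian testosterone, 0.951 in submandibular placebo and 0.514 in meibomian placebo. The pools of the last 4 overlapped with their neighbour in this order. Sgk1 ran from 23.5 in submandibular testosterone through 9.61 in meibomian placebo, 7.01 in meibomian testosterone and 6.53 in submandibular placebo to 1.36 in lacrimal placebo and 0.669 in lacrimal testosterone, and only meibomian testosterone and submandibular placebo overlapped. Odc1 ran from 7.95 in lacrimal testosterone and 4.68 in lacrimal placebo to 3.29 and 2.92 in submandibular testosterone and placebo and 2.16 and 2.09 in meibomian placebo and testosterone. Within the submandibular and within the meibomian gland the treatment groups of Odc1 overlapped.

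Other genes of each pathway give the setting of the 3 genes. Over all tested probes the median change was -0.07, 0.06 and 0.01 for lacrimal, meibomian and submandibular glands. Counts of pathway genes below include the 3 genes themselves. Counts of called genes are to be read against the shares of all tested probes called in each gland, which are given beside them. Counts at an unadjusted limma p under 0.05, here and for the markers below, use another threshold. No share of all probes at that threshold is given, so they are descriptions only.

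Fkbp5 was the most changed of 10 tested FKBP family probes in each gland. In the lacrimal gland 2 of the 10 rose and 3 fell, with a median change of -0.01, where 13.3% of all probes were called higher and 14.8% lower. Fkbp11, a membrane-bound FKBP of secretory cells, rose from 15.7 ± 2.20 to 36.0 ± 4.84 (1.19, limma adjusted p = 6.22e-06). Fkbp1a, which encodes the FKBP12 target of rapamycin, fell by 0.93 (adjusted p = 2.78e-06), Fkbp3 fell by 0.61 (adjusted p = 0.0210) and Fkbp2 fell by 0.57 (adjusted p = 0.00280). Without the 3 pools with markers of another gland 4 of these 5 were called, and Fkbp3 was not (adjusted p = 0.159). In the submandibular gland Fkbp5 alone of the 10 was called (median 0.08), and in the meibomian gland none was (median 0.33, with 4 of the 10 higher at an unadjusted limma p under 0.05). Without the share of all meibomian probes at that threshold, this count is not read as a trend of the family.

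FKBP51 works with HSP90, whose chaperone list had 17 tested probes. In the lacrimal gland Fkbp5 rose and 2 fell (13.3% and 14.8% of all probes were called higher and lower): Bag1, a nucleotide exchange factor of HSP70, by 1.48 (limma adjusted p = 4.47e-06) and Hspa8, the constitutive HSP70, by 1.11 (adjusted p = 8.60e-06), with a list median of -0.11. After quantile normalization 5 of the 17 were called there. The share of all probes called in that setting is not given here, so this count is not read against a background. In the submandibular gland, where 8.54% of all probes were called higher, Fkbp5 and Hsp90b1, the HSP90 of the endoplasmic reticulum, rose, the latter from 63.4 ± 1.23 to 99.6 ± 13.4 (0.64, adjusted p = 0.00803), with a median of 0.14. None was called by limma in the meibomian gland (median 0.07), where 1 was higher at an unadjusted p under 0.05. Fkbp4, the close relative of Fkbp5 in these complexes, had changes of 0.01 in the lacrimal (adjusted p = 0.989) and 0.45 in the meibomian gland (adjusted p = 0.508).

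Of the steroid receptors 2 passed the filter, the glucocorticoid receptor gene Nr3c1 and the oestrogen receptor gene Esr2. Neither was called by limma in any gland, and 0 passed an unadjusted p under 0.05. Nr3c1 had a lacrimal change of -0.20 (limma adjusted p = 0.419), a meibomian change of 0.02 (adjusted p = 0.973) and a submandibular change of -0.24 (adjusted p = 0.379).

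Around Sgk1, 18 probes of upstream kinases and targets were tested. In the submandibular gland 4 rose and 3 fell, with a median of 0.11, against 8.54% of all probes called higher and 5.25% lower. The β subunit of the epithelial sodium channel, Scnn1b, rose with Sgk1 from 8.16 ± 0.437 to 15.6 ± 2.16 (0.91, limma adjusted p = 0.000987), and the γ subunit, Scnn1g, rose from 1.38 ± 0.0348 to 2.65 ± 0.572 (0.84). The α subunit, Scnn1a, was not called, at 34.9 ± 2.65 and 39.7 ± 3.24 (0.18, limma adjusted p = 0.642). Nedd4l was not called either (-0.52, limma adjusted p = 0.0689). Ndrg2, whose protein SGK1 phosphorylates, rose from 7.66 ± 0.498 to 13.4 ± 2.70 (0.78). Foxo1, a transcription factor that AKT and SGK kinases hold out of the nucleus, fell by 1.68 (adjusted p = 0.000285), Atp1b1, a sodium pump subunit, fell by 0.98 (adjusted p = 0.0131), and Slc9a3r2, a scaffold that binds SGK1, fell by 0.72.

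In the lacrimal gland 1 of these 18 probes rose and 4 fell, with a median of -0.29, beside 13.3% of all probes higher and 14.8% lower. Pdpk1, the kinase that activates SGK1, fell from 1.60 ± 0.393 to 0.689 ± 0.113 (-1.02, limma adjusted p = 0.000446). Ndrg2 fell together with Sgk1 (-0.76, adjusted p = 0.000134), Nedd4 fell by 0.47 (adjusted p = 0.00829), and Gsk3b rose by 0.53 (adjusted p = 0.0178). When the same 3 pools were left out 4 were called, and Nedd4 was not (adjusted p = 0.0800). The difference of the 2 glands' changes, lacrimal minus submandibular, was called for Ndrg2 (-1.54, adjusted p = 4.65e-06), Scnn1b (-0.75, adjusted p = 0.0226), Scnn1g (-1.07, adjusted p = 0.00595) and Foxo1 (1.24, adjusted p = 0.0201). Lacrimal Scnn1b averaged 0.383 with placebo and 0.454 with testosterone, and Scnn1g averaged 0.462 and 0.372. Every lacrimal pool of both was below its array's 40th percentile. Their differences thus set the submandibular rises against probes too dim in the lacrimal gland to show a fall. Ndrg2 was below that percentile in all lacrimal testosterone pools (mean 0.457). In the meibomian gland none of the 18 was called by limma (median -0.17), and 2 were lower at an unadjusted p under 0.05.

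Of 12 tested probes of polyamine genes, 4 rose and 2 fell in the lacrimal gland, with a median of 0.18 (13.3% of all probes were called higher and 14.8% lower there), and none was called in the meibomian (median -0.02) or the submandibular gland (median -0.003). At an unadjusted limma p under 0.05 these counts were 0 in the meibomian gland and 2 higher and 1 lower in the submandibular gland. Beside Odc1 the rises were of arginases, which make the ornithine that ODC1 uses, and of spermidine synthase: Arg1 rose from 2.76 ± 0.594 to 13.0 ± 2.06 (2.17, limma adjusted p = 1.79e-07), Arg2 by 0.58 (adjusted p = 0.0329) and Srm by 0.63 (adjusted p = 0.00158). Sat1, the acetyltransferase that starts polyamine breakdown and export, fell from 33.7 ± 5.06 to 6.67 ± 2.53 (-2.38, adjusted p = 7.92e-06), and Sms, spermine synthase, fell from 9.06 ± 0.603 to 4.30 ± 0.491 (-1.05, adjusted p = 6.58e-05). Arg2 (adjusted p = 0.355) and Srm (adjusted p = 0.0591) were not called without the 3 pools with markers of another gland. Arg2 was not called after quantile normalization over all arrays either (adjusted p = 0.0797). The antizyme genes Oaz1 and Oaz2, whose proteins send ODC1 to the proteasome, changed by -0.08 (adjusted p = 0.703) and 0.11 (adjusted p = 0.550). Between the glands, lacrimal minus submandibular, Arg1 (2.56, adjusted p = 2.79e-06) and Sat1 (-2.52, adjusted p = 0.000236) differed in their change, and Srm did not pass (0.51, adjusted p = 0.0566).

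**Figure D4:**
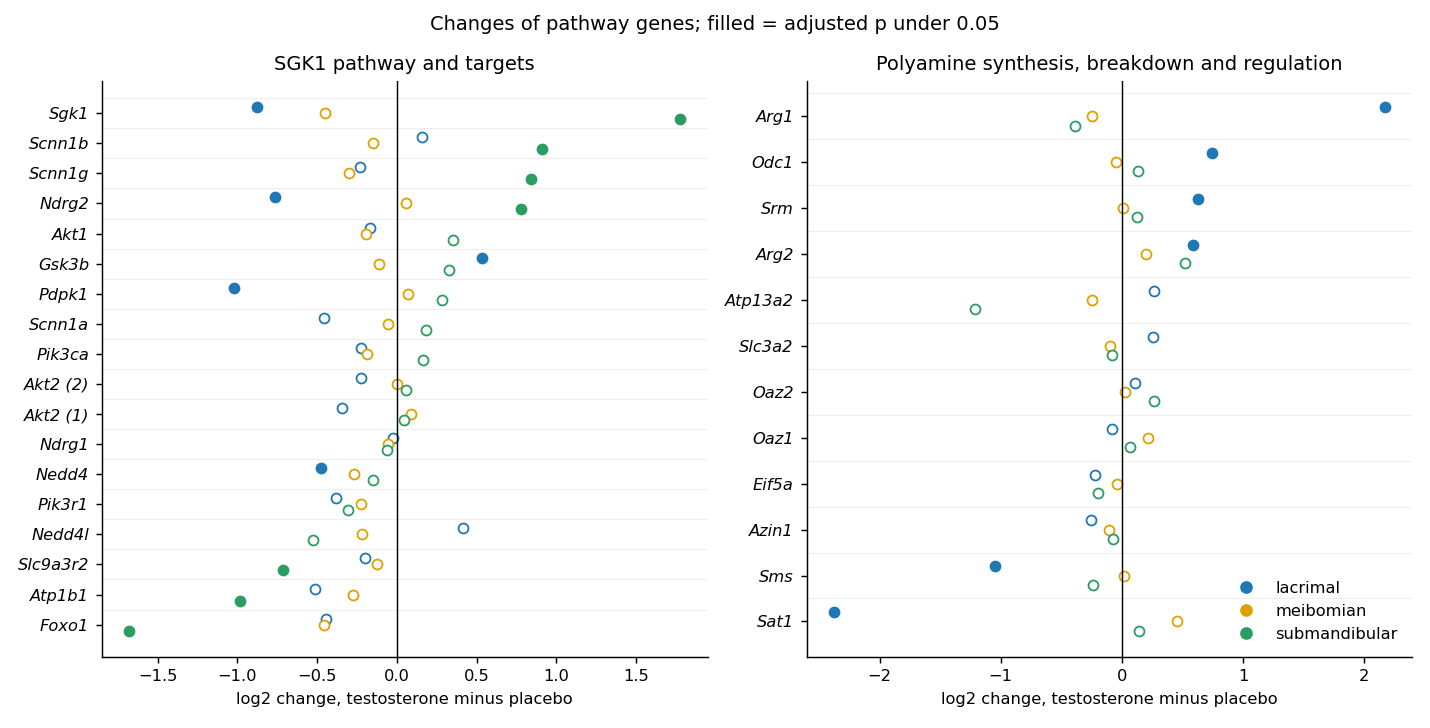
Log2 change, testosterone minus placebo, of each tested probe of the SGK1 pathway list (left) and the polyamine list (right) for the lacrimal (blue), meibomian (yellow) and submandibular gland (green), with called changes filled. Akt2 had 2 tested probes. Filled green points at the top left are Sgk1, Scnn1b, Scnn1g and Ndrg2, and filled blue points at the top right are Arg1, Odc1, Srm and Arg2.

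A further list held 22 tested probes of genes that androgen or glucocorticoid induces in other organs, Fkbp5, Sgk1 and Odc1 among them. In the lacrimal gland 3 rose and 5 fell (median -0.03), in the submandibular gland 2 rose and 2 fell (median 0.04), and in the meibomian gland none was called by limma (median -0.05, with 1 higher and 3 lower at an unadjusted p under 0.05). Of all probes 13.3% were called higher and 14.8% lower in the lacrimal gland and 8.54% and 5.25% in the submandibular gland, so the counts of higher calls in this list are near the background. The lacrimal rises were of Fkbp5, Odc1 and Azgp1, a secreted glycoprotein that is androgen-induced in prostate (0.93, limma adjusted p = 0.00520). Homer2 fell there (-1.65, adjusted p = 1.69e-08), as did Acsl3 (-0.99, adjusted p = 0.0157), Gusb (-0.73, adjusted p = 0.000953), Nfkbia (-0.66, adjusted p = 0.00156) and Sgk1. Without the 3 pools with markers of another gland 6 of the 8 were called, and Azgp1 (adjusted p = 0.0596) and Acsl3 (adjusted p = 0.249) were not. In the submandibular gland Fkbp5 and Sgk1 rose, and Tmprss2 (-0.79, adjusted p = 0.0136) and Homer2 (-0.38, adjusted p = 0.0447) fell. Submandibular Homer2 was not called without the 3 pools (adjusted p = 0.0687). None of the 3 is submandibular, and the Homer2 change stayed at -0.38.

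Markers of other cells moved in the same samples. The shares of all tested probes called higher and lower were 13.3% and 14.8% in the lacrimal and 8.54% and 5.25% in the submandibular gland. They were 0.469% and 0.121% in the meibomian gland. Single calls in such short lists say little about a cell type. In the lacrimal gland, where Fkbp5 and Odc1 rose and Sgk1 fell, all 6 tested proliferating-cell markers rose, and their summed intensity went from 14.4 to 17.2 in placebo pools to 48.4 to 72.5 in testosterone pools. Mki67 was 0.406, 0.418 and 0.377 with placebo and 9.54, 6.37 and 6.07 with testosterone. Lymphocyte markers rose in 2 of 6 probes (sum 62.6 to 73.8 against 96.1 to 105.1), acinar markers fell in 4 of 7 (sum 1733 to 1768 against 955 to 1391), and macrophage and MHC class II markers fell in 2 of 4 (sum 39.1 to 46.0 against 31.2 to 33.8). Without the 3 pools with markers of another gland Cd79a of the lymphocyte list (adjusted p = 0.0507), Ltf of the acinar list (adjusted p = 0.186) and both macrophage and MHC class II probes, H2-Aa (adjusted p = 0.0969) and Cd74 (adjusted p = 0.0600), were not called. In the submandibular gland, where Fkbp5 and Sgk1 rose, 3 of 5 fibroblast markers rose (sum 39.1 to 48.1 against 48.7 to 57.2) and 2 of 3 adipocyte markers fell (sum 46.6 to 133.9 against 41.9 to 46.3), while 0 of 6 proliferating-cell markers were called by limma (1 was higher and 1 lower at an unadjusted p under 0.05). Pdgfra of the fibroblast list (adjusted p = 0.0631) and Fabp4 (adjusted p = 0.0849) were not called without the 3 pools. None of the 3 is submandibular, and these changes stayed at 2.08 and -0.79. Of the other lists, lacrimal calls were 3 higher and 1 lower of 8 sebocyte probes, 1 higher of 4 submandibular, 1 higher of 4 keratinocyte, 1 lower of 3 adipocyte and 1 lower of 5 fibroblast probes. Submandibular calls were 2 lower of 8 sebocyte, 2 higher of 4 submandibular and 3 lower of 8 skeletal muscle probes. In the meibomian gland Retn of the adipocyte list (-1.16, adjusted p = 0.0207) and Cd74 of the MHC class II list (-0.87, adjusted p = 0.0207) fell. Without the 3 pools neither was called (adjusted p = 0.159 and 0.129), nor were lacrimal Retn (adjusted p = 0.193) and Fasn of the sebocyte list, through different probes, in the lacrimal (adjusted p = 0.125) and the submandibular gland (adjusted p = 0.0577). The submandibular Fasn change stayed at -0.96 in that fit. Endothelial probes and the lists not named here for a gland had 0 calls there. No tested marker was at 0 in any pool. Their part in the changes of the 3 genes was not tested.

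The probes most like each gene over the 18 arrays were found by Pearson correlation of log2 intensity. These values share glands, treatments and arrays and are descriptions. Fkbp5 was most like Ap2b1 (0.95), Ndfip1 (0.93), Csn3 (0.92), Dqx1 (0.91) and Nectin2 (0.91). Ap2b1, an adaptor subunit of clathrin coats, stood at 2.64 and 38.1 in lacrimal placebo and testosterone and at 1.69 and 5.78 in submandibular placebo and testosterone. Sgk1 was most like Wnt4 (0.98), Pfkm (0.98), Serpinb1b (0.97), Serpinb1a (0.97) and Adm (0.97). Serpinb1a, an inhibitor of neutrophil proteases, stood at 16.5 and 58.4 in submandibular placebo and testosterone and at 0.702 and 0.459 in the lacrimal gland. Odc1 was most like Gnat2 (0.96), Pla2g2f (0.96), Pde6b (0.96), Cyp2c38 (0.96) and Rab1a (0.95). Among the 3 genes the correlation was 0.75 for Fkbp5 and Odc1, -0.39 for Fkbp5 and Sgk1, and -0.77 for Sgk1 and Odc1.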

How the data were processed

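RNA of 18 gland pools was measured on 1-colour arrays. The authors deposited probe intensity on a linear scale, per the file headers and values. Neither the array and scanner nor the background correction and scaling are named in the labels. The value -1 was read as no value, and other values below 0 were set to 0.

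Values were changed to log2(value + 0.174), the offset being the 10th percentile of positive values. A probe was tested if each group had at least 2 values and if at least 3 arrays had it above their own 40th percentile. This kept 7463 of 10500 probes, with 146 lacking values and 2891 dim. The annotation gave 8983 probes a single symbol and left 1516 without, and 1 carried more than that, and RefSeq changed 0 symbols. A dated platform annotation gave the names, and probe sequences were not used here.

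The main model, in limma 3.58.1 under R 4.3.3, had 6 group means over 18 arrays (12 residual degrees of freedom), eBayes used a trend, and p-values were Benjamini-Hochberg adjusted over all tested probes. The fit was tested on simulated data. Intervals are at the 95% level. The number of arrays limits the precision.

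The members and the 6 pathway and 11 marker lists were chosen with earlier results of these data known. Named genes are the 3 members; of each pathway list and gland up to 4 called probes with the largest change, or up to 2 where none was called; the 5 probes most like each member; and the steroid receptor genes that were tested. Further list members, marker genes and pools were picked after their values were seen: Fkbp2, Fkbp4, Scnn1a, Scnn1g, Slc9a3r2, Nedd4, Nedd4l, Srm, Arg2, Oaz1, Oaz2, Gusb, Nfkbia and the marker genes given by pool. Alternatives are in the closing section. Leaving out the 3 pools with markers of another gland was added after seeing the data. Figures were drawn with matplotlib 3.10.9.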

Additional observations from a re-analysis of the deposited data

Results flagged for a closer look

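Each of the 5 results below is a difference between the testosterone changes of a pair of glands that passed limma's test of the difference itself. For Fkbp5, the lacrimal change exceeded the meibomian one by 2.72 (adjusted p = 0.000293) and the submandibular change exceeded it by 1.64 (adjusted p = 0.0306). For Sgk1, the lacrimal change lay below the submandibular one, at -2.65 (adjusted p = 2.16e-06), and the submandibular change exceeded the meibomian one by 2.23 (adjusted p = 6.21e-05). For Odc1, the lacrimal change exceeded the meibomian one by 0.79 (adjusted p = 0.0302). The Sgk1 differences were called in all 18 fits that left out a pool, whereas the second Fkbp5 difference and the Odc1 difference were lost in 6 and 8 of them.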

How the results depend on the processing

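Under 31 alternatives the 5 called changes within a gland kept their direction and their call: Fkbp5 was 3.33 to 3.84 in the lacrimal and 2.09 to 2.90 in the submandibular gland, Sgk1 was -1.05 to -0.59 and 1.63 to 2.03, and lacrimal Odc1 was 0.68 to 0.78. The alternatives were other offsets, filters, normalizations, variance models, the value -1 counted as 0, each gland alone, the replicate letter as a block, each pool left out and, added after seeing the data, the 3 pools with markers of another gland left out. Many of these could not move the size of a change within a gland, only its SE and adjusted p-value. That was so for pools of another gland left out, the filters, eBayes without trend, the replicate block and each gland alone. It was also so for submandibular changes without the 3 pools. Direction was therefore fixed in advance in those fits. Meibomian Fkbp5 passed with array weights (0.97, adjusted p = 0.000779) and with the gland fitted alone (0.98, adjusted p = 0.0236), and was 0.89 to 1.12 with a pool left out. Meibomian Sgk1 passed with array weights (-0.61, adjusted p = 0.000644). With a pool left out Odc1 was -0.12 to 0.027 in the meibomian gland (0.027, adjusted p = 0.981, without testosterone B) and -0.028 to 0.37 in the submandibular gland (-0.028, adjusted p = 0.945, without testosterone C). The causes were not tested. Pools with the same letter did not deviate together: residual correlations ran from -0.11 to 0.14 over 9 pairs within a gland. Over 18 pairs of the same letter and treatment in different glands they ran from -0.065 to 0.13. With the replicate block the lacrimal and submandibular changes of Fkbp5 were 3.70 (adjusted p = 7.62e-07) and 2.61 (adjusted p = 8.63e-05), and no call among the 27 results of the 3 genes changed. Differences between glands were less stable. Fkbp5 lacrimal minus submandibular passed with a 4-fold larger offset (1.24, adjusted p = 0.00647), submandibular minus meibomian was lost with a 4-fold smaller one (adjusted p = 0.0585), and Odc1 lacrimal minus meibomian was lost after quantile normalization over all arrays (0.75, adjusted p = 0.0534). Counts of called meibomian probes ran from 0 without meibomian placebo A, without testosterone B or without the 3 pools (664, 715 and 694 at an unadjusted limma p under 0.05) to 2661 with array weights, against 44, and lacrimal calls fell from 2094 to 1391 without the 3 pools. Of 70 called list probes, all kept their direction under 3 other scalings, and 52 were called without the 3 pools. The 3 pools a group and the unknown scaling limit all of this, most of all for dim probes such as meibomian Fkbp5 and lacrimal Sgk1.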
